A study of Mus musculus
Rattus norvegicus and Mus musculus with 6 samples.

Results

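Itga2b, Gp1bb and Thbs1 are 3 genes of megakaryocytes and platelets, and they were read here in hematopoietic stem cells (SC) that had or had not been kept with cardiomyocytes. They were chosen by their signals on these same arrays, where earlier results had Itga2b and Gp1bb lower and Thbs1 higher after coculture. Their difference between the groups is therefore given as a description, with no test. Of 46628 probes on the array, 9796 carry a gene ID in their name and stand for 8102 genes, and each of the 3 genes has 1 such probe.

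The megakaryocyte is the large bone marrow cell that sheds platelets into the blood. Itga2b encodes integrin αIIb (CD41), which pairs with integrin β3 to form the fibrinogen receptor that links platelets to each other. CD41 also marks early blood progenitors and cells committed to the megakaryocyte lineage. Gp1bb encodes the β chain of glycoprotein Ib, a part of the receptor complex through which platelets catch von Willebrand factor on a damaged vessel wall. Thbs1 encodes thrombospondin-1, a large matrix glycoprotein that platelets store in their α-granules and release when activated. Thrombospondin-1 is also made by macrophages, fibroblasts and other cells, binds the receptors CD47 and CD36 and can activate latent TGF-β.

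Lin-/c-kit+ cells were taken from tibia and femur marrow of mice labelled as C57Bl/6, given a green dye and kept for 48 h either with neonatal rat ventricular cardiomyocytes (NRVCM) of Wistar rats (coculture, 3 arrays) or alone (monoculture, 3 arrays). Both groups were sorted by flow cytometry before RNA was extracted, and each array stands for an independent culture experiment. Monoculture wells held more SC than coculture wells, so the number of SC per well cannot be told apart from coculture itself. The lineage antibodies that the methods name were directed against lymphoid, myeloid and erythroid antigens, and none of them against CD41 or another megakaryocyte antigen.

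Signals are on the log2 scale, where a difference of 1 is a doubling, and each array had a median of 6.56. A probe counted as above background where it exceeded all of 24 probes directed at reporter genes and vectors on the same array (limits of 6.57 to 6.71). The correlation across all probes was 0.987 to 0.991 between coculture arrays, 0.990 to 0.993 between monoculture arrays and 0.967 to 0.977 from one group to the other. The labels give male mice throughout, but 5 of the 6 arrays went against them. Xist, the RNA that silences an X chromosome in female cells, had log2 signals of 8.72, 6.84 and 8.80 on coculture replicates 1, 2 and 3 and of 8.62, 8.77 and 8.21 on monoculture replicates 1, 2 and 3. The Y-linked Eif2s3y stood at 8.93 on coculture replicate 2 and at background on each of the other arrays. Kdm5d, also Y-linked, stood at 6.94 on coculture replicate 2 and at background elsewhere. The Y-linked Ddx3y and Uty were at background on all 6 arrays, and Xist remained above the limit of 6.71 on coculture replicate 2. Coculture replicate 2 thus stood apart. The differences of the 3 members, and of the listed and neighbouring genes that passed, are also given without it. Those of the markers of other cell types are not. H2-D1, an MHC class I gene that most cells of the body express, separated the groups completely. Its log2 signal was 11.83, 12.30 and 12.68 on coculture replicates 1, 2 and 3, while no monoculture array exceeded background (6.40, 6.39 and 6.43). Whether the mice of both groups were of the same origin was not tested, and a difference in origin cannot be told apart from coculture in any result here, those of Itga2b, Gp1bb and Thbs1 included.

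Itga2b was lower in cocultured SC on every array. Its log2 signal was 7.02, 7.77 and 7.97 on coculture replicates 1, 2 and 3 and 10.27, 9.57 and 9.29 on monoculture replicates 1, 2 and 3. All 6 values lay above background, and the groups did not overlap, with a gap of 1.32 between the brightest coculture array and the dimmest monoculture array. Coculture arrays averaged 7.59 ± 0.50 (SD, n = 3), and monoculture arrays averaged 9.71 ± 0.50 (SD, n = 3). The difference of -2.12 (standard error 0.33) amounts to a 4.35-fold lower signal. Without coculture replicate 2 the difference was -2.21.

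Gp1bb was close to background in cocultured SC and clearly above it in monoculture. Its log2 signal was 6.69, 6.71 and 6.93 on coculture replicates 1, 2 and 3 and 10.21, 9.06 and 8.58 on monoculture replicates 1, 2 and 3. On coculture replicate 2 the probe was at background. The 3 coculture values lay within 0.24 of each other, while the monoculture values spanned 1.62. The means were 6.78 ± 0.13 (SD, n = 3) and 9.28 ± 0.84 (SD, n = 3), a difference of -2.51 (standard error 0.39) or a 5.68-fold lower signal in coculture. Without coculture replicate 2 the difference was -2.47. When the brightest of all 33 probes for foreign sequences was taken as the limit, Gp1bb was at background on all 3 coculture arrays and at least 5.05-fold lower.

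Thbs1 was higher in cocultured SC on every array. Its log2 signal was 9.08, 8.46 and 8.53 on coculture replicates 1, 2 and 3 and 7.09, 7.82 and 7.34 on monoculture replicates 1, 2 and 3. The dimmest coculture array lay 0.64 above the brightest monoculture array, so the gap was narrower than for the receptor genes. Coculture had a mean of 8.69 ± 0.34 (SD, n = 3), against 7.42 ± 0.37 (SD, n = 3) for monoculture. The difference was 1.27 (standard error 0.23), or a 2.41-fold higher signal, and it was 1.39 without coculture replicate 2. These values are from its 1 named probe. A further probe, whose name holds the digits of the Thbs1 ID without leading zeros, was not counted and was at background on all 6 arrays. Thbs1 is also among the genes that the study listed as upregulated on these samples.

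**Figure D1:**
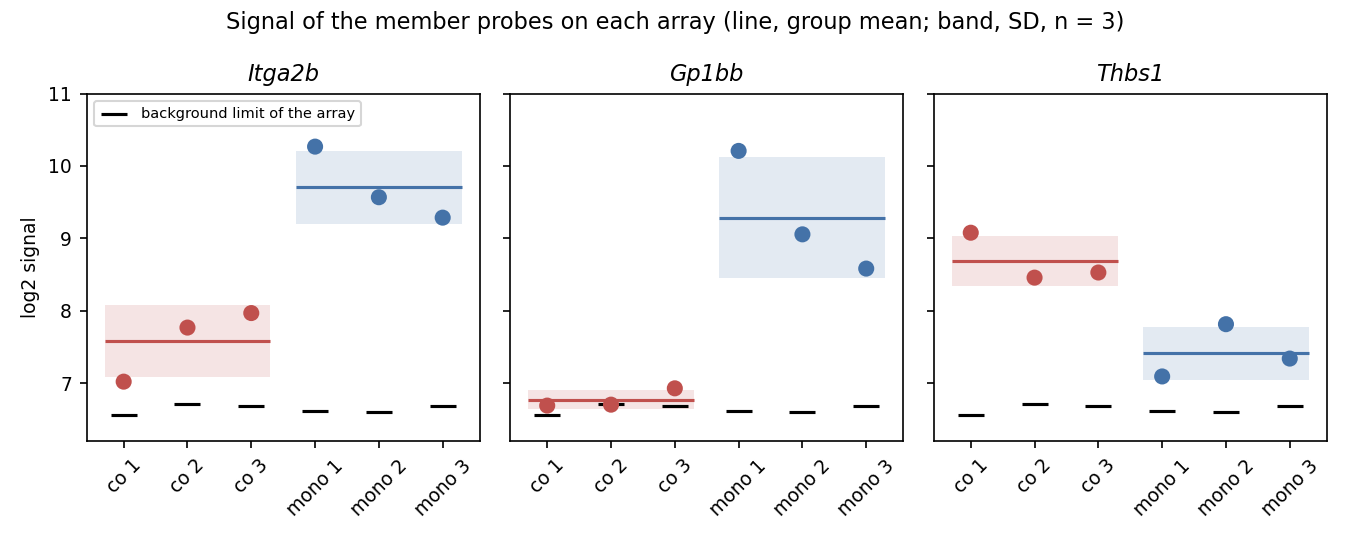
Log2 signal (vertical axis) of Itga2b, Gp1bb and Thbs1 on the 3 coculture (red) and 3 monoculture (blue) arrays, with the group mean as a line, the SD as a band and the background limit of each array as a black dash. Itga2b and Gp1bb lie at 7.97 or below in coculture and at 8.58 or above in monoculture, while Thbs1 lies at 8.46 or above in coculture and at 7.82 or below in monoculture.

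Among the 8102 named genes, each taken on its brightest probe, the difference of Gp1bb was the 17th largest fall in signal, that of Itga2b the 24th largest, and that of Thbs1 the 37th largest increase. A probe passed the test with an adjusted p under 0.05 in limma's empirical Bayes test (Benjamini-Hochberg over all probes) if it also differed by over 1.5-fold. Of all 46628 probes, 1.93% were lower and 1.73% higher by this rule, 3.65% in all. In 11.6% of probes all coculture arrays lay above all monoculture arrays, and in 11.6% they lay below. Nothing is read from these shares for the 3 genes, since the same contrast chose them.

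The 3 genes varied more between arrays of 1 group than most probes of a similar signal. In monoculture, the SD of Gp1bb was above that of 98.6% of probes within 0.5 of its mean log2 signal, that of Itga2b above 96.3% and that of Thbs1 above 95.4%. The median SD of these similar probes was 0.12 to 0.16. In coculture, the SD of Itga2b was above that of 96.4%, of Gp1bb above 91.2% and of Thbs1 above 84.5%. The median SD of the similar probes was 0.14, 0.06 and 0.17 in this order. For Gp1bb these were 31493 probes, since its coculture signal was close to background. Monoculture replicate 1 had the highest signals of Itga2b and Gp1bb and the lowest of Thbs1. Coculture replicate 1 had the lowest signals of Itga2b and Gp1bb and the highest of Thbs1. Leaving out 1 array in turn, the difference ranged from -2.33 to -1.84 for Itga2b, from -2.86 to -2.04 for Gp1bb and from 1.08 to 1.47 for Thbs1. The difference nearest 0 was found without coculture replicate 1 for Itga2b and Thbs1 and without monoculture replicate 1 for Gp1bb.

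The label of the 3 genes could be checked only in part. Of 16 marker genes of megakaryocytes and platelets, 3 could be named on the array, namely Itga2b, Gp1bb and Nfe2, and the other 13 were not analysed here. Nfe2, a transcription factor needed for platelet release and also active in erythroid and myeloid cells, had log2 signals of 11.90, 11.96 and 12.06 in coculture and 11.88, 11.68 and 11.83 in monoculture. Its difference of 0.18 (95% confidence interval from 0.01 to 0.34) did not pass (adjusted p = 0.245). In RNA of whole cell populations, fewer cells of a type and less RNA per cell cannot be told apart.

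Of the other platelet receptor genes that could be read, Cd151 fell. The list of platelet receptors held 23 genes besides Itga2b and Gp1bb, of which 4 could be named. Of these 4, 1 fell, none rose and 3 did not pass, against 2.81% of named genes lower and 2.97% higher, 5.79% in all. Cd151, a tetraspanin that associates with laminin-binding integrins, had log2 signals of 9.01, 9.13 and 8.97 in coculture and 9.94, 9.72 and 10.15 in monoculture. Its difference was -0.90 (standard error 0.11, adjusted p = 0.0088 in limma), and its other probe gave -1.02. Itga6, the α-chain of a laminin receptor, lay lower on all coculture arrays but did not pass (-0.40, adjusted p = 0.051). Cd36, a receptor of thrombospondin-1, and the adrenergic receptor gene Adra2a were at background on all 6 arrays. The median difference of the 4 genes was -0.21, beside 0.00 over all named genes.

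Genes of platelet granules and secreted platelet proteins went both ways. Of 21 such genes besides Thbs1, 3 could be named, and of these 1 rose, 1 fell and 1 did not pass. Srgn encodes serglycin, the proteoglycan that holds proteins in the granules of platelets and other blood cells. It had log2 signals of 10.51, 10.63 and 10.69 in coculture and 8.97, 9.63 and 9.82 in monoculture, and it rose by 1.13 (standard error 0.21, adjusted p = 0.030). Srgn did not pass without coculture replicate 1, 2 or 3 or without monoculture replicate 2 (adjusted p up to 0.087). Pdgfa, the A chain of platelet-derived growth factor, had log2 signals of 7.24, 7.01 and 6.57 in coculture and 9.09, 9.14 and 8.68 in monoculture, and it fell by 2.03 (adjusted p = 0.0042). The coagulation factor gene F5 had a difference of 0.22 (adjusted p = 0.584). The median difference of the 3 genes was 0.22.

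Of 23 genes of platelet signaling and cytoskeleton, 7 could be named, of which 1 fell and 6 did not pass. Plek encodes pleckstrin, the main protein kinase C substrate of platelets, which leukocytes also express. Its log2 signal was 7.17, 7.38 and 6.96 in coculture and 8.02, 7.83 and 8.23 in monoculture, a difference of -0.86 (standard error 0.14, adjusted p = 0.019). Plek did not pass without coculture replicate 1 or monoculture replicate 1. Rap1b, a small GTPase on the way to integrin activation, had a difference of -0.44 (adjusted p = 0.058), and Vasp, an actin regulator, one of -0.24 (adjusted p = 0.059). Both lay lower on all coculture arrays than on any monoculture array without passing. Rasgrp2, which activates Rap1 in platelets, had -0.32 (adjusted p = 0.515), Pecam1 -0.52 (adjusted p = 0.193), the cyclooxygenase gene Ptgs1 0.21 (adjusted p = 0.645) and the adaptor gene Lcp2 0.05 (adjusted p = 0.914). The median of the 7 genes was -0.32.

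None of the named transcription factor genes of the megakaryocyte lineage passed. Of 20 genes on the list, 8 could be named, and their median difference was 0.00. Fli1, an ETS factor of the megakaryocyte program, ranged from 7.93 to 8.29 in log2 signal in coculture and from 7.79 to 8.13 in monoculture, so that the groups overlapped. It differed by 0.10 (95% confidence limits -0.19 and 0.40, adjusted p = 0.766). Runx1, a master factor of blood development, differed by -0.11 (limits -0.47 and 0.24, adjusted p = 0.794). Whether Fli1 or Runx1 bears on the difference of Itga2b, Gp1bb or Thbs1 was not tested. Gabpa, another ETS factor, had 0.20 (adjusted p = 0.049) and Mafg, a partner of Nfe2, -0.41 (adjusted p = 0.047), both under the 1.5-fold limit. Lmo2 (-0.07) and Mef2c (-0.06) had adjusted p values of 0.815 and 0.897, and Ets1 was near background. By limma, 3 of the 8 had an unadjusted p under 0.05.

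Beside Thbs1, its relatives, receptors and the genes of the TGF-β pathway were read. Of 21 genes of thrombospondin family members and partners besides Thbs1, 11 could be named, and of these 2 fell, none rose and 9 did not pass. Tgfbr1, a TGF-β receptor gene, had log2 signals of 10.35, 10.36 and 10.22 in coculture and 11.45, 11.81 and 11.59 in monoculture. It fell by 1.30 (standard error 0.10, adjusted p = 0.0019). A further probe for Tgfbr1, dim on all arrays, differed by -0.10 and did not pass. Lrp1, an endocytic receptor that takes up thrombospondin-1, had 7.95, 8.38 and 7.32 in coculture and 8.95, 9.22 and 9.18 in monoculture. Its difference was -1.23 (standard error 0.25, adjusted p = 0.042), which did not pass without coculture replicate 1 or any 1 of the monoculture replicates (adjusted p up to 0.119).

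Cd47, the receptor for the carboxy-terminal part of thrombospondin-1, had a difference of 0.28 (95% confidence interval from 0.00 to 0.55, adjusted p = 0.271). The family member Thbs2 was at background on all 3 coculture arrays, with a mean of 6.71 in monoculture. Ltbp1, which tethers latent TGF-β, did not exceed background on any coculture array, where it was at least 1.33-fold lower without passing (adjusted p = 0.126). The integrin subunit genes Itgav and Itgb5, which with Itga2b belong to the integrins that bind the RGD motif, lay lower on all coculture arrays. Itgav had a difference of -0.32 (adjusted p = 0.134) and Itgb5 one of -0.75 (adjusted p = 0.092), and neither passed. Tgfbr2 (-0.18, adjusted p = 0.431), Lrp5 (0.18, adjusted p = 0.306) and the syndecan gene Sdc1 (-0.27, adjusted p = 0.631) did not pass. The median of the 11 genes was -0.22.

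Over all 6 lists, 33 of 110 genes other than the members could be named, of which 5 fell and 1 rose. These are 15.2% and 3.03% of the 33, beside 2.81% and 2.97% of all named genes, or 4.32% and 4.57% (8.89% in all) of the named genes above background on at least 1 array. In 13 of the 33 genes the coculture arrays all lay below the monoculture arrays, and in 3 they all lay above, against 13.6% and 14.6% of named genes and 18% and 19.1% of those above background on at least 1 array. Without coculture replicate 2, 6 of the genes were lower and none higher. The added one was Itgb5, and Srgn was the one lost (1.12, adjusted p = 0.072). The differences were then -0.95 for Cd151, -2.07 for Pdgfa, -0.96 for Plek, -1.33 for Tgfbr1 and -1.48 for Lrp1, and all 5 passed.

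**Figure D2:**
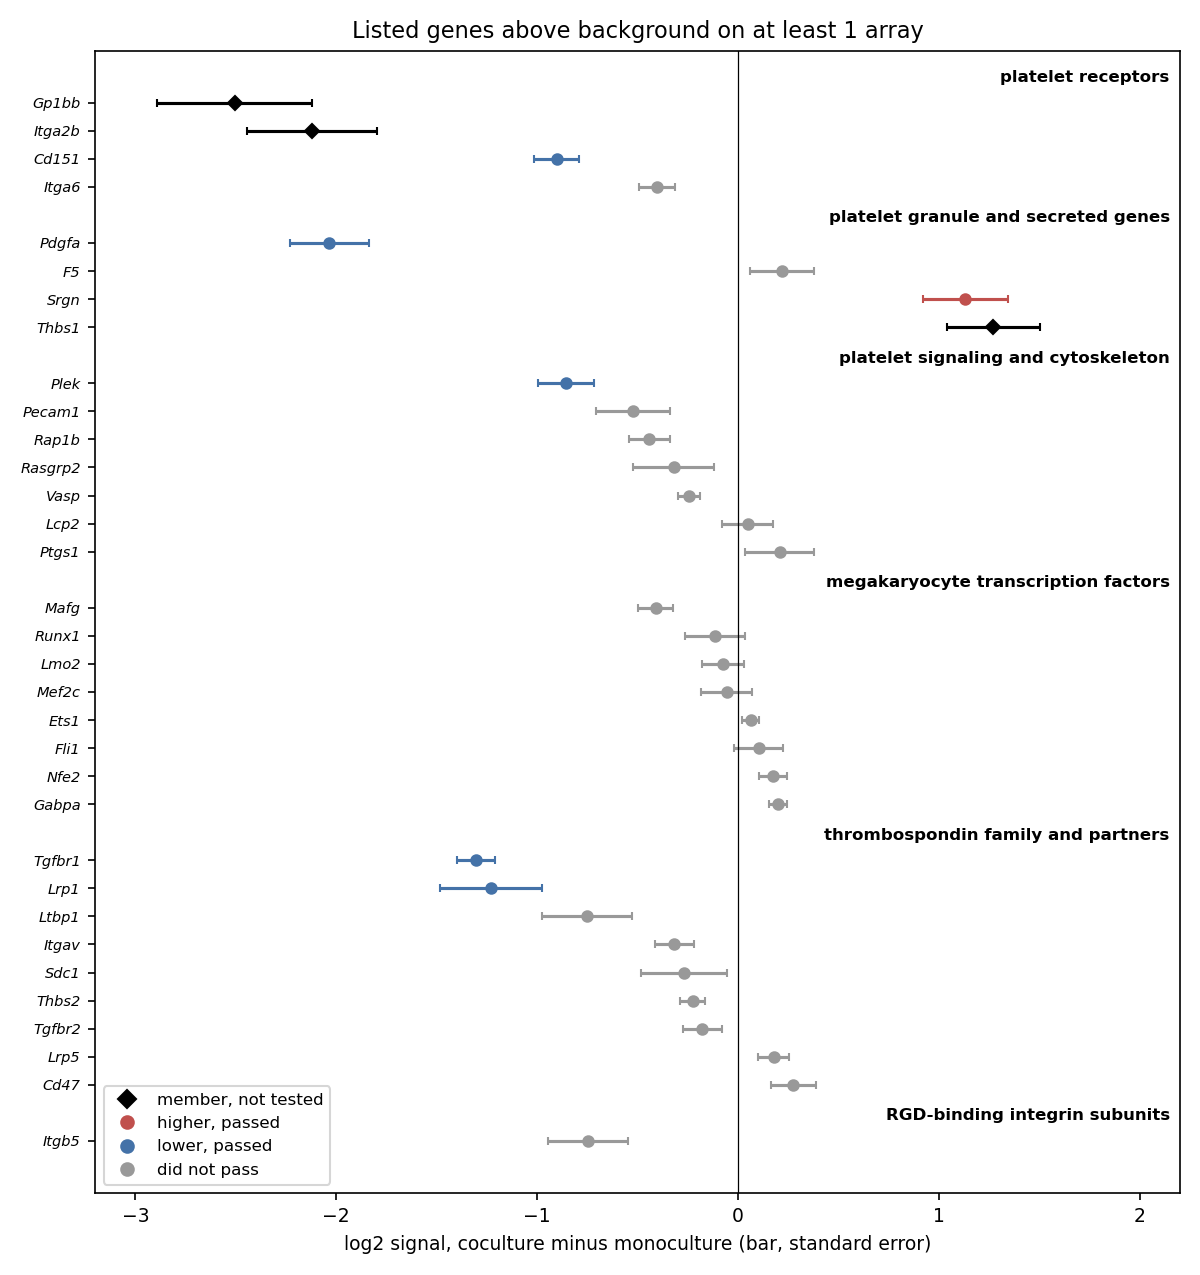
Difference in log2 signal between coculture and monoculture (horizontal axis, bars are standard errors, 3 against 3 arrays) for the listed genes above background on at least 1 array, each under the first list that holds it. Pdgfa, Tgfbr1, Lrp1, Cd151 and Plek fell (blue), Srgn rose (red), the others did not pass (grey), and the 3 members were not tested (black diamonds).

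Of the genes next to the members on the chromosome, none beside Itga2b or Gp1bb passed, while beside Thbs1 1 rose and 1 fell. Among the 3 nearest protein-coding genes on each side, those with a named probe were examined. Gp1bb overlaps Septin5, a septin gene, in the annotation, and transcripts of overlapping genes can reach the same probe. Septin5 had log2 signals of 7.49, 7.82 and 7.46 in coculture and 8.09, 7.53 and 7.19 in monoculture. The groups overlapped, with a difference of -0.02 (95% confidence interval from -0.57 to 0.53, adjusted p = 0.986). Which transcripts reached the Gp1bb probe was not tested. Gnb1l, also near Gp1bb, had 0.22 (adjusted p = 0.260), and Tbx1 was near background.

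Beside Itga2b, Gpatch8 had a difference of 0.14 (adjusted p = 0.607), Slc25a39 one of 0.37 (adjusted p = 0.099) and Fzd2 one of 0.06 (adjusted p = 0.592). None of these neighbours was lower in coculture. Near Thbs1, Rasgrp1, an activator of Ras, averaged 9.22 ± 0.42 (SD, n = 3) on the coculture arrays against 7.86 ± 0.14 (SD, n = 3) on the monoculture arrays and rose by 1.36 (standard error 0.21, adjusted p = 0.016). When monoculture replicate 1 was left out Rasgrp1 missed the threshold (adjusted p = 0.066), and its other probe, close to background, had a difference of 0.00. Gpr176, an orphan G protein-coupled receptor gene on the other side of Thbs1, was at background on all 3 coculture arrays and at least 1.70-fold lower there (adjusted p = 6.6e-04). Spred1 had -0.04 (adjusted p = 0.833). Without coculture replicate 2, Rasgrp1 had a difference of 1.12 and Gpr176 one of -1.06, and both passed.

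**Figure D3:**
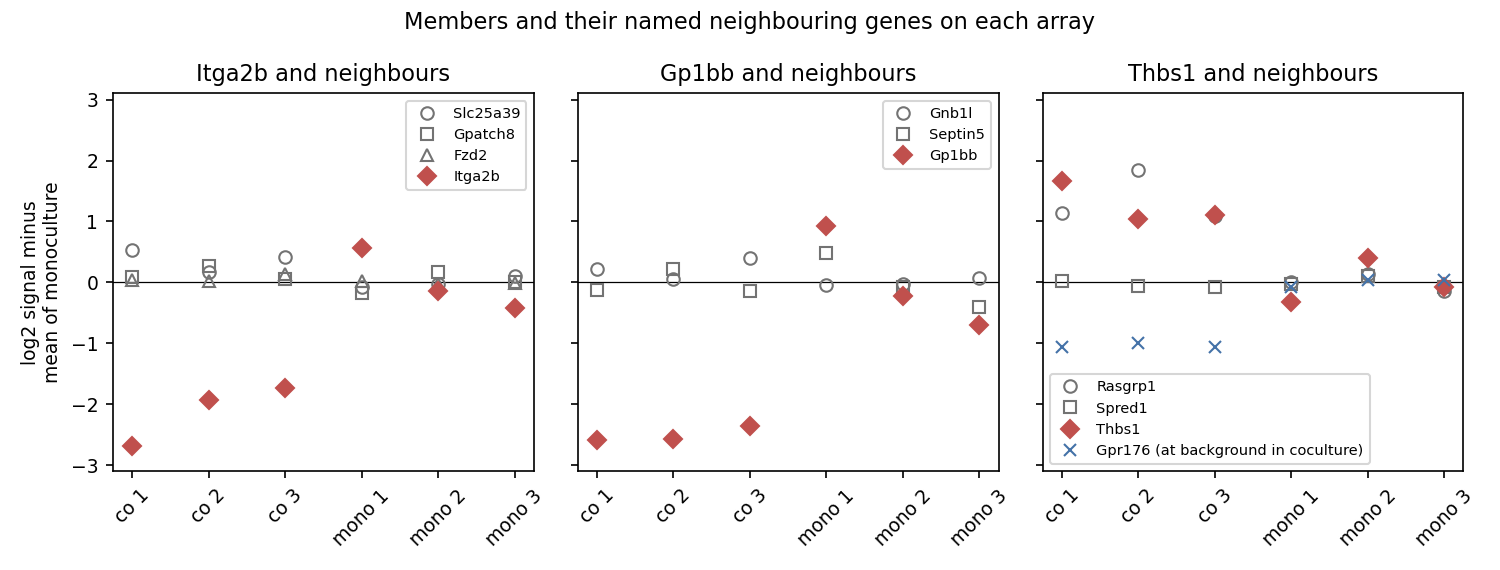
Log2 signal on each array minus the mean of the 3 monoculture arrays (vertical axis) for the members (red diamonds) and their named neighbouring genes above background on all 6 arrays (grey), with Gpr176 in blue. The neighbours of Itga2b and Gp1bb stay within 0.55 of 0 on all arrays, while Rasgrp1 lies above 0 and Gpr176 below 0 in coculture.

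Of the named genes, Gucy1a1 stood close to both receptor genes in its pattern. The likeness is given as Pearson's r over the 6 arrays among 413 other named genes above background on at least 3 arrays with an SD of at least 0.5. It has no test, and because the arrays fall into 2 groups it mostly reflects the difference between them. An r of at least 0.95 was reached by 18 of the 413 genes with Itga2b, 17 with Gp1bb and 15 with Thbs1. Gucy1a1, which encodes a subunit of the soluble guanylate cyclase that senses nitric oxide, had log2 signals of 6.96, 7.11 and 7.64 in coculture and 10.25, 9.69 and 9.32 in monoculture. Its r was 0.986 with Itga2b and 0.982 with Gp1bb. Itga2b was most alike to Il4i1, an L-amino acid oxidase gene (r = 0.988), and Gp1bb itself came next after Gucy1a1 (r = 0.971), before Cd300c and Atp6v1c1. Gp1bb was most alike to Bcl2l1, which encodes the survival protein Bcl-xL (r = 0.994), and to the urea transporter gene Slc14a1 (r = 0.988), followed by Gucy1a1, Timp3 and Rasgrp3. Thbs1 was most alike to Tra2b, a splicing regulator (r = 0.993), followed by B4galt6 and Tmpo, and Mrps5 was also among the 5 most alike.

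After the group means were subtracted, so that only differences between arrays of the same group remained, Il4i1 still came first for Itga2b (r = 0.969) and Bcl2l1 for Gp1bb (r = 0.983). The next places for Itga2b were held by Mgmt and the histone genes H2bc14, H2bc12 and H2bc11. For Gp1bb, Rad54l, the adenylate cyclase genes Adcy5 and Adcy6 and the spectrin gene Sptb followed. For Thbs1, the RNA-binding protein gene Hnrnpa3 came first (r = 0.974) and Tra2b followed after Apaf1 (r = 0.958), before Rbbp4 and B4galt6. Rad54l (1.19) and H2bc12 (0.43) were higher in coculture, against the direction of Gp1bb and Itga2b, while the others had the direction of their member. Between the members themselves, r after this subtraction was 0.78 for Itga2b and Gp1bb, -0.74 for Itga2b and Thbs1 and -0.45 for Gp1bb and Thbs1. All these r values rest on 3 arrays per group and have no test, so even high ones are only a description.

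**Figure D4:**
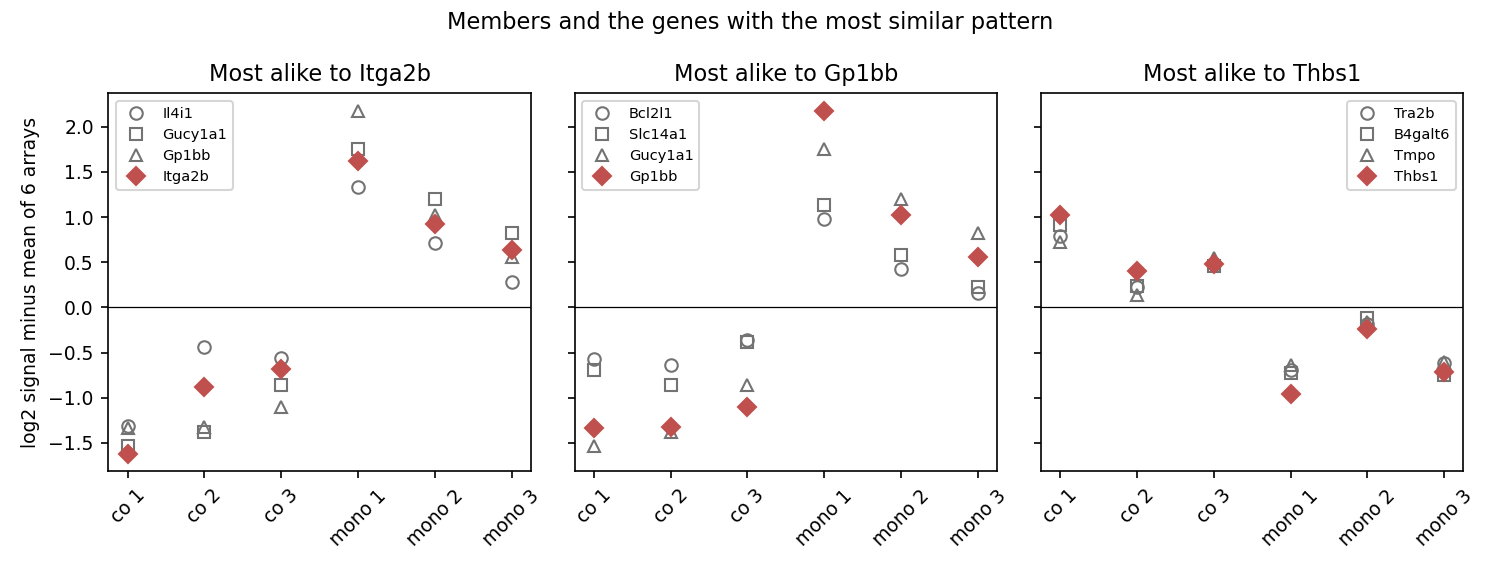
Log2 signal on each array minus the mean of the 6 arrays (vertical axis) for each member (red diamonds) and the 3 named genes with the highest Pearson's r with it (grey symbols). The genes alike to Itga2b and Gp1bb lie below 0 on the 3 coculture arrays and above 0 on the 3 monoculture arrays, and those alike to Thbs1 the other way round.

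Markers of other cell types were read beside the members. Of 14 monocyte and macrophage markers, 8 could be named, 2 of which fell and none rose, and Msr1 was at background. Of all named genes, 2.81% were lower and 2.97% higher. Cd68, a lysosomal protein gene of macrophages, fell by 2.06, and Mertk, a receptor for taking up dying cells, fell by 1.59. Csf1r (-0.92), C1qb (-1.16), Lyz2 (-0.14), Itgam (-0.09) and C1qa (0.21) did not pass. The summed linear signal of the 8 markers was 24854 to 32206 in coculture and 37818 to 40813 in monoculture. Lyz2 made up most of this level and lay slightly lower on all coculture arrays. Its means of 14.47 in coculture and 14.60 in monoculture were close to the highest signal of any probe (14.85), where a difference may be understated. Of 12 mast cell and basophil markers, 4 could be named and none passed, Mcpt4 being at background, with a sum of 410 to 659 in coculture and 779 to 1216 in monoculture. Fcer1a, a chain of the IgE receptor, had log2 signals of 7.02, 8.42 and 8.46 in coculture and 8.77, 9.21 and 9.76 in monoculture (adjusted p = 0.181). The part of these cell types in the difference of Itga2b, Gp1bb and Thbs1 was not tested.

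Of 12 erythroid markers, 3 could be named and none passed. The hemoglobin gene Hba-a1 ranged from 6.87 to 9.93 in coculture and from 7.83 to 10.82 in monoculture, so that the groups overlapped. Hbb-b1, also a hemoglobin gene, lay lower on all coculture arrays (6.65 to 6.78 against 6.83 to 6.86, a difference of -0.13). Car1 lay lower on all coculture arrays as well (-0.10), but it exceeded background on only 1 array, in monoculture. The summed signal of the list was 318 to 1167 in coculture and 440 to 2020 in monoculture. Whether erythroid cells had a part in the difference of Itga2b, Gp1bb or Thbs1 was not tested. Of 5 named fibroblast markers, all were at background on all 6 arrays. Of 5 named cardiomyocyte markers, Myh6, Myh7 and Ryr2 were at background and none passed, with sums of 561 to 570 in coculture and 528 to 550 in monoculture. Mybpc3 had log2 signals of 6.87, 6.98 and 7.20 in coculture and 6.81, 6.84 and 6.79 in monoculture (0.21, adjusted p = 0.262 in limma). It thus lay higher on all coculture arrays, as did 14.6% of named genes. Atp2a2 had a difference of 0.07, and its groups overlapped. Among 4 named endothelial markers, Egfl7 rose (1.63, adjusted p = 0.010) and the sums were 1090 to 1681 in coculture and 1345 to 1367 in monoculture. Pecam1 (-0.52), Eng (-0.31) and Emcn (0.12) did not pass, and the median difference of the list was -0.10. Of 4 named neutrophil and promyelocyte markers, 1 rose, with sums of 71515 to 83098 in coculture and 61579 to 74561 in monoculture. Of 3 named progenitor markers, Hlf and Slamf1 were at background on all 6 arrays and Mecom was above it on 3, close to the limit, so that the list gives no reading of progenitors. Kit was not analysed here. The array probes are for mouse RNA, so rat transcripts are read only where they cross-hybridize.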

How the data were processed

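RNA of lin-/c-kit+ SC was read on 6 Illumina Mouse Sentrix-6 bead arrays, 3 after coculture and 3 after monoculture. Groups and replicate numbers came from the sample titles. The values deposited by the authors are log2 signals from 5.81 to 14.85, which they obtained by discarding outlier beads, taking the mean of the rest for each probe and applying quartile normalization. Background correction is not given in the sources used here. A second table, not normalized, was not used because the names of its 12 columns match no label. Signals hold no read depth, so the number of arrays limits the precision.

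Probes were named through the gene ID in their names and RefSeq's GRCm38.p6 annotation, used for names and gene order only. A probe whose name holds the digits of the Thbs1 ID without leading zeros was not counted, and it was at background on all 6 arrays. Group means were compared over all probes with limma 3.58.1 in R 4.3.3 (group as the only term, Benjamini-Hochberg adjustment). Calls needed an adjusted p under 0.05 with a change of over 1.5-fold, and a gene was taken on its brightest probe. Where no array of a group exceeded background, the fold is a lower bound computed against each array's limit. The fit was tested on simulated data.

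The members, lists and background probes were chosen with earlier results of these data known. Named are the 3 members, the listed genes that passed or lay above background on all 6 arrays, and the 5 genes most alike each member, 1 of which is not reported here. The neighbouring genes, the single markers and listed genes closer to background were named after their values were seen.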

Additional observations from a re-analysis of the deposited data

How the results depend on the processing

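The differences of Itga2b, Gp1bb and Thbs1 kept their direction in every run that left out 1 array. The groups did not overlap for any of these genes, so no such run could reverse a difference. It is therefore no check on the direction. The differences moved by less than the SD of the more variable group (0.50 for Itga2b, 0.84 for Gp1bb and 0.37 for Thbs1). With 3 arrays per group this outcome was also fixed in advance, so it does not show stability. A filter on dim probes, the intensity trend and the replicate number as a block cannot move these differences, so they are no check on them. Another quantile normalization and centring on the median hardly changed arrays that already shared a median, and the differences stayed nearly the same. The stricter background limit (chosen after seeing the data) moved only Gp1bb, to -2.34. The move of Gp1bb without monoculture replicate 1 (to -2.04) or 3 (to -2.86) exceeded its coculture SD of 0.13. Each member has 1 named probe, so a mean over probes gave no further value. With the replicate block, 3 listed genes fell instead of 5, Lrp1 and Plek being lost, and 1 rose. The block left 571 probes higher and 610 lower. After subtraction of group means, same-numbered arrays had a Pearson's r of -0.133, -0.129 and -0.114 across probes and other pairs one of 0.020 to 0.10. No same-numbered pair was above 0.1, so the numbers were not taken to pair the arrays. Leaving out 1 array in turn, 3 to 6 listed genes fell and 0 to 1 rose, the count of 0 being found without coculture replicate 1, 2 or 3 or monoculture replicate 2. Over all probes, 433 to 922 were higher (806 with all arrays) and 583 to 907 lower (898 with all arrays), with the fewest higher without monoculture replicate 1 (433) and coculture replicate 1 (490). The fewest lower were found without coculture replicate 1 (583) and monoculture replicate 1 (588). The causes of these changes were not tested. Cd151, Pdgfa and Tgfbr1 passed in all 12 alternatives. Signals close to background, such as those of Gp1bb in coculture, limit how large a fall can be read.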
